A study of Mus musculus with 16 samples.

Results

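The genes described here are those of the mitochondrial ribosomal proteins, taken as every entry whose symbol starts with Mrpl or Mrps followed by a digit in both deposited count tables. They numbered 77 of the 22675 genes that the tables share. By what is known of the structure of the ribosome, 50 of them belong to the large subunit and 26 to the small subunit. The remaining gene, Mrps36, encodes a subunit of the oxoglutarate dehydrogenase complex and kept its ribosomal name. Symbols do not always follow the structure, since Mrps30 and Mrps18a encode proteins of the large subunit.

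The cells were splenic B cells of C57BL/6 mice, collected 7 days after immunization with NP-OVA in LPS and alum. They were sorted as B220+, CD138-, GL7-, FAS-, CD38+, IgD- and NIP-binding, so they carried the surface phenotype of early memory cells and lacked markers of germinal center and plasma cells. All mice carried AID-Cre, a Cre recombinase driven by the gene for activation-induced deaminase, the B1-8hi heavy chain, which favours binding of the hapten NP and its relative NIP, and GFP. The ZSDAT allele of Zfp318 was heterozygous (ZSDAT/+, Het) or homozygous (ZSDAT/ZSDAT, KO), and cells of each genotype were split by the fluorophore tdTomato into negative (TN) and positive (TP). This gave 4 groups of 4 Smart-seq2 libraries from about 1000 cells each, named HetTN, HetTP, KOTN and KOTP. Whether each library stands for a mouse of its own is not labelled, so the tests below measure how far these libraries scatter, which may be technical.

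Mitochondria translate the few proteins of their own genome, all of them membrane subunits of the respiratory chain and the ATP synthase, on ribosomes of their own. The ribosomal RNA is made inside the organelle, whereas every protein of this ribosome is encoded in the nucleus, translated in the cytosol and imported. The small subunit binds and decodes the message and the large subunit joins the amino acids. Some of the proteins descend from bacterial ribosomal proteins and others were gained in mitochondria. In B cells, mitochondrial translation is known to be needed when activated cells grow and divide. Nuclear genes of this kind are known targets of the ETS factor GABPA, of NRF1 and of YY1.

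A stretch of 300 bases, from 250 before to 50 after the transcription start, was found in RefSeq (GRCm38.p6) for 68 of the 77 genes and searched on both strands. A gene with several windows, such as Mrps16, counted as a match if any of them held the motif, here and in the shares of other genes. The ETS motif CCGGAAG was present in 25 of the 68 genes (36.8%), against 22.2% of the 7996 tested coding genes and 13.6% of the 15134 coding genes in the tables with a window. The YY1 motif AAGATGGC was in 12 (17.6%), against 5.87% of tested coding genes and 3.79% of all coding genes. The core of the NRF1 motif, GCGCATGC, was in 8 (11.8%), against 6.62% of tested coding genes, and the longer palindromic NRF1 site that contains this core was in 3 (4.41%), against 2.61%. The E-box CACGTG was in 5 genes (7.35%), against 12.2% of tested coding genes, and GGGCGG, the core of SP and KLF sites, was in 34 (50%), against 68.8%. Such a match describes the letters only.

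The 100 bases upstream of the start are shown for 3 genes whose values are given further on and whose stretch overlaps no annotated exon, as examples with and without a match, 5′ to 3′ on the strand of the gene, with the ETS motif of either orientation in capitals. Mrpl43 (chr19:45006443-45006542, minus strand) and Mrpl52 (chr14:54426809-54426908, plus strand) were higher in KOTN than in HetTN. Mrpl55 (chr11:59202386-59202485, plus strand), shown for contrast, holds no match. The motif occurs at 2 places upstream of Mrpl43 and once upstream of Mrpl52, there on the opposite strand. Among the other named genes, the stretch of Mrps18a, which fell in KOTP, also holds it, as do those of Mrpl27 and Mrps27. These stretches overlap annotated exons. Mrpl20, Mrps12, Mrps17 and Mrps36 have exon-free stretches without it. The exon-overlapping stretches of Mrpl10, Mrpl12, Mrpl16, Mrpl23, Mrpl28, Mrpl57, Mrps6, Mrps18b, Mrps18c, Mrps21, Mrps30 and Mrps31 also lack it. Of these, Mrpl16, Mrpl57, Mrps18c and Mrps30 were called in a comparison below. Mrps16 and Mrps34 had no single window and were left out.
Mrpl43: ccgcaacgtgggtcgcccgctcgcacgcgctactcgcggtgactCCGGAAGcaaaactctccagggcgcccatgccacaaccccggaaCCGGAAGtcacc
Mrpl52: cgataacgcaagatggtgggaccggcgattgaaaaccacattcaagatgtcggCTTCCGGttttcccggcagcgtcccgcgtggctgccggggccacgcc
Mrpl55: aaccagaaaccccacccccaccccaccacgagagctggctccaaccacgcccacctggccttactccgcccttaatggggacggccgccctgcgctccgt

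A further shared feature was the neighbourhood of the start sites. In the GENCODE annotation, 19 of the 77 genes (24.7%) had another coding gene on the opposite strand starting within 1000 bp in a head-to-head arrangement, against 1584 of 21938 coding genes (7.22%). The latter share covers all annotated coding genes, and none was taken for the tested genes. Starts overlapping by more than a short stretch were not counted, such as those of Mrpl46 and Mrps11. Several of the counted partners are mitochondrial themselves. Mrps12 starts 172 bp from Sars2, the mitochondrial seryl-tRNA synthetase, Mrps27 starts 81 bp from Ptcd2, a mitochondrial RNA-binding protein, and the start of Mrpl36 overlaps that of Ndufs6, a subunit of respiratory complex I. Others are not, such as Fau, a cytosolic ribosomal protein gene 59 bp from Mrpl49, and Ncapd2, a condensin subunit 100 bp from Mrpl51.

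Total counts per library ranged from 7748787 to 15742445, and the median count of a tested member ranged from 551 to 1273 per library. Zfp318 lay between 78.8 and 152 CPM (counts scaled to the library total) in the 8 Het libraries and between 0.446 and 5.42 CPM in the 8 KO libraries, which matches the labels. Each genotype was deposited in a table of its own, so genotype cannot be told apart from differences in handling or counting between the tables. Of the genes tested, 7.02 to 13.6% had no count in a Het library and 1.52 to 2.34% in a KO library, and the biological coefficient of variation was 0.845 in Het and 0.2 in KO. The 9 B cell markers summed to 10500 to 13500 CPM in Het and 13600 to 16100 CPM in KO, without overlap, and in each genotype comparison 5 were called higher and 1 lower in KO. The 9 T cell markers summed to 226 to 724 CPM in Het and to 26.3 to 47.8 CPM in KO, where 5 of the 9 had no count in KOTN and 5 in KOTP, Cd3e among them in both. Macrophage markers summed to 148 to 1380 CPM in Het and 74.6 to 152 CPM in KO. The 17 cell division genes summed to 1990 to 4180 CPM in Het and to 707 to 1320 CPM in KO. Germinal center markers summed to 510 to 1020 CPM in Het and 190 to 420 CPM in KO, and plasma cell markers to 260 to 842 and 74.8 to 210 CPM. The part of these differences in the genotype results below was not tested. In bulk libraries, fewer cells of a type and less RNA per cell cannot be told apart.

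Messages of the mitochondrial ribosome were present in every group, with summed levels of 5797 to 7830 CPM over the 16 libraries. The 77 genes together gave 5797, 7531, 7123 and 7354 CPM in HetTN (mean 6951 ± 787, SD, n = 4) and 5921, 7830, 7014 and 7327 CPM in HetTP (7023 ± 808). In KOTN they gave 6776, 6676, 6725 and 6874 CPM (6763 ± 85) and in KOTP 6181, 6426, 6388 and 6837 CPM (6458 ± 275). The KO libraries all lay inside the range spanned by the Het libraries, and the sum amounted to 0.58 to 0.783% of the counts of a library. Small subunit genes summed to 1958 ± 216 CPM in HetTN, 2020 ± 249 in HetTP, 2048 ± 71.8 in KOTN and 1977 ± 79.7 in KOTP. Large subunit genes summed to 4936 ± 585, 4934 ± 593, 4654 ± 69.5 and 4419 ± 198 CPM in the same order. The Het libraries spread more widely, with the lowest sum of each Het group in its replicate 1.

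**Figure D1:**
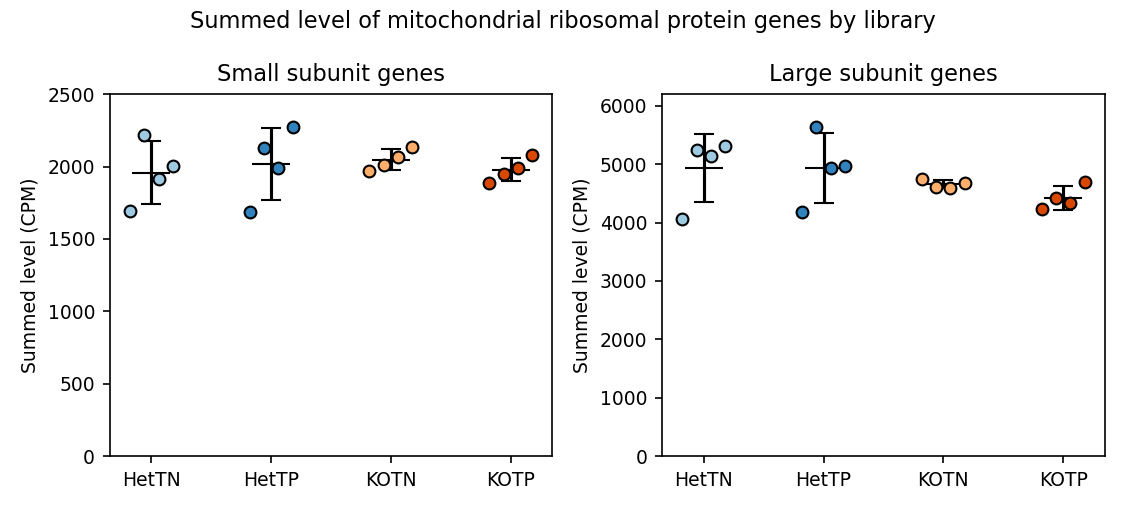
Summed level (CPM, linear axis from 0) of the small subunit genes (left) and large subunit genes (right) in each library, with the group mean and SD (n = 4). The groups overlap in both subunits, and the KO libraries lie closer together than the Het libraries.

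The spread of single genes followed the same pattern. The median coefficient of variation over the members was 28.6% in HetTN, 27% in HetTP, 8.99% in KOTN and 9.67% in KOTP. In 1601 tested genes at the middle levels of the members it was 31.1, 27.8, 10.4 and 10.6%, so the difference in spread between the genotypes was not limited to these genes.

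**Figure D2:**
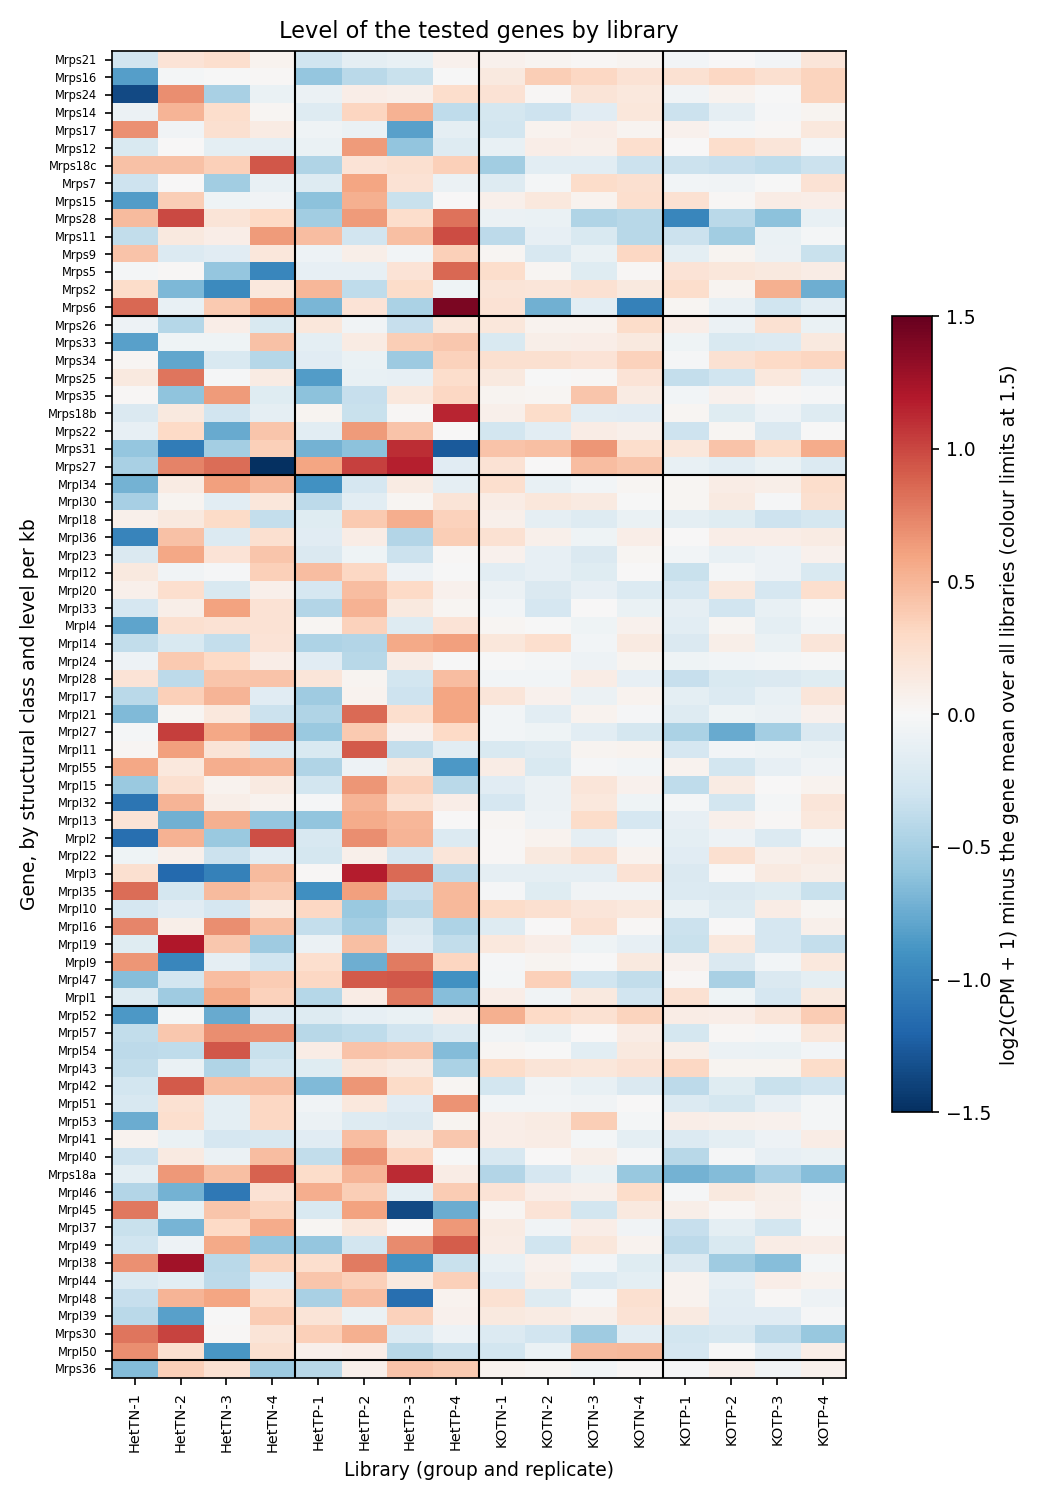
Level of each of the 75 tested genes in each library as log2(CPM + 1) minus the mean of the gene over all libraries, with colours limited at 1.5. Genes are ordered from top to bottom by class (small subunit with a bacterial counterpart, small subunit specific to mitochondria, large subunit with a bacterial counterpart, large subunit specific to mitochondria, Mrps36) and by level per kb within a class. Colours vary more among the 8 Het libraries on the left than among the 8 KO libraries on the right.

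Levels differed widely between genes once scaled to coding length. The median over the 75 tested genes was 136 CPM per kb of coding sequence, with quartiles of 72.5 and 218, and the highest gene exceeded the lowest 35.1-fold. Mrpl52, a protein of the large subunit specific to mitochondria, was highest at 549 ± 129 CPM per kb (SD over 16 libraries), followed by Mrps21, a small subunit protein with a bacterial counterpart, at 500 ± 53.3, and Mrpl57, a very small mitochondria-specific protein of the large subunit, at 462 ± 124. The SDs of these 3 genes overlapped, but they mix differences between groups with the scatter within a group. Whether the genes differ within a group was not tested. The order of the 3 genes depended on the group. Mrpl52 led in HetTP (506), KOTN (681) and KOTP (612), whereas in HetTN, at 398, it stood below Mrpl57 (598) and Mrps21 (523), among others. Lowest were Mrps6 at 15.6 ± 9.04, Mrps27 at 16 ± 7.59 and Mrps31 at 23.8 ± 10.6 CPM per kb, whose SDs over all libraries also overlapped. Mrps27 had no count in HetTN replicate 4, which allows up to 0.261 CPM, while the other HetTN libraries held 12.5 to 32.7 CPM. Mrps6 shares a coding stretch of 140 bp with the predicted gene Gm49711 on the same strand, so its counts are uncertain. Mrps10 and Mrps23, both small subunit genes, were listed at 0 in all 16 libraries and were not tested. Whether the counting could assign reads to these 2 genes is not given in the sources used here, so their zeros may be an annotation or counting gap and are not read as a level. Where reads can be assigned, a count of 0 allows 0.191 to 0.387 CPM, depending on the library (3 counts, counting error only).

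The comparison of KO with Het in tdTomato-positive cells asked how the homozygous allele relates to expression in cells that carried the fluorophore. Of the 75 members tested, Mrps16 rose and Mrps18a fell in KOTP against HetTP, and the other 73 did not pass an adjusted p of 0.05 in edgeR's quasi-likelihood test with Benjamini-Hochberg adjustment over all 10687 genes. The 2 called members stand beside 10.3% of all genes tested that were called in this comparison, 5.06% higher and 5.22% lower. The median log2 change of the members was 0.05 with quartiles of -0.14 and 0.32, against a median of -0.03 over all genes, and it was -0.18 when scaled by library totals, because TMM scaling moved all log2 changes of this comparison up by 0.23. The 95% interval of the log2 change lay within a 2-fold change either way for 63 members (84%), against 25.6% of all genes. It did so for 54 members in the compared libraries alone. Such a share also follows how tightly a gene is measured. The median coefficient of variation over all tested genes was 45% in HetTP and 18% in KOTP, wider than over the members. No share was taken for genes at the level of the members, here or in the comparisons below. At an unadjusted p under 0.05, 12 members passed, against 21.3% of all genes. All libraries of KOTP lay above those of HetTP for 2 members and below for 4, against 7.06% and 13.8% of all genes.

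Mrps16 (chr14:20389304-20393634, GRCm38) encodes a small subunit protein with a bacterial counterpart that is needed to assemble the subunit. It measured 121.5, 137.7, 144.7 and 181.8 CPM in HetTP and 213.5, 225.2, 215.2 and 229 CPM in KOTP, so every KOTP library lay above every HetTP library. The fitted log2 change was 0.82 (SE 0.19, 95% interval 0.41 to 1.23, edgeR adjusted p = 0.00751). The call held in 17 of 17 other settings, with adjusted p from 0.00112 to 0.028. In tdTomato-negative cells, KOTN libraries (200.9, 235.9, 225.7 and 212.1 CPM) also all lay above HetTN libraries (102.5, 178.2, 181.9 and 184.5 CPM), and the log2 change of 0.50 did not pass (adjusted p = 0.097).

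Mrps18a (chr17:46110986-46128910), 1 of 3 mammalian paralogs of the bacterial protein S18 and the one placed in the large subunit, moved the other way. It measured 89.2, 105.1, 160.8 and 79.4 CPM in HetTP and 44.8, 46.5, 51.6 and 47 CPM in KOTP, without overlap. The log2 change was -0.97 (SE 0.26, edgeR adjusted p = 0.0184). The call was lost without HetTP replicate 3 (adjusted p = 0.0728) or KOTP replicate 1 (0.0594), 2 (0.0538) or 4 (0.0512). In tdTomato-negative cells the log2 change was -0.78 (adjusted p = 0.0594), where the lowest HetTN library, at 66.4 CPM, lay under the highest KOTN library, at 68.8 CPM. That change passed with RLE scaling (0.0472), library totals (0.0284), the filter at 5 CPM (0.0491) and DESeq2 (0.0231), and without HetTN replicate 1 (0.0122). The paralog Mrps18b, a small subunit protein, had log2 changes of -0.22 in tdTomato-positive and 0.22 in tdTomato-negative cells, neither past the threshold (adjusted p = 0.762 and 0.723). A fit of the 8 compared libraries alone called 4 members in tdTomato-positive cells, beside 11.7% of all genes tested in that fit. These were Mrps16, Mrps18a, Mrpl52 (adjusted p = 0.031) and Mrpl57 (adjusted p = 0.0415).

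In tdTomato-negative cells, Mrpl52, Mrps34 and Mrpl43 rose and Mrps18c and Mrps30 fell in KOTN against HetTN. These 5 of 75 stand beside 10.5% of all genes called in this comparison, 5.61% higher and 4.88% lower. The median log2 change of the members was 0.03 (quartiles -0.19 and 0.26), against 0.00 over all genes, and -0.06 with library totals. The interval lay within a 2-fold change for 58 members (77.3%), against 24.9% of all genes, and for 52 in the compared libraries alone. At an unadjusted p under 0.05, 12 members passed, against 23.5%. KOTN libraries lay entirely above HetTN libraries for 5 members and entirely below for 5, against 10.4% and 8.5% of all genes.

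Mrpl52 (chr14:54426909-54429756), whose promoter is shown above, measured 105.9, 189.3, 114.3 and 167.9 CPM in HetTN and 279.9, 238.6, 226 and 243.6 CPM in KOTN. The groups did not overlap and the log2 change was 0.85 (SE 0.19, edgeR adjusted p = 0.00693). It passed in 17 of 17 other settings, with adjusted p from 0.000779 to 0.0476, and in tdTomato-positive cells the log2 change was 0.50 (adjusted p = 0.0989, and 0.0449 with upper quartile scaling). Mrpl43 (chr19:45004829-45006442), a mitochondria-specific protein of the large subunit, measured 131.9, 159.5, 124.9 and 141.2 CPM in HetTN and 206.2, 195.7, 192 and 198.3 CPM in KOTN. These groups did not overlap either, and the log2 change was 0.59 (SE 0.16, adjusted p = 0.0228). In tdTomato-positive cells its groups overlapped and the log2 change was 0.46 (adjusted p = 0.0722), which passed with upper quartile scaling (0.0265) and without HetTP replicate 2 (0.046) or 3 (0.0432).

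Mrps34 (chr17:24895116-24897502), a mitochondria-specific protein of the small subunit that stabilises its ribosomal RNA, measured 98.8, 56.3, 82.5 and 71.8 CPM in HetTN and 115, 114.6, 112 and 123.4 CPM in KOTN. All KOTN libraries were above all HetTN libraries, with a log2 change of 0.69 (SE 0.19, edgeR adjusted p = 0.0257). In tdTomato-positive cells the log2 change was 0.53 (adjusted p = 0.0864), which passed with upper quartile scaling (0.0389) and without HetTP replicate 4 (0.0202). The calls of Mrpl43 and Mrps34 were both lost whichever KOTN replicate was left out, with adjusted p from 0.0512 to 0.0724, and that of Mrps34 was also lost without HetTN replicate 2 (adjusted p = 0.0612). With limma voom the adjusted p was 0.0795 for Mrpl43 and 0.0852 for Mrps34, and with library totals it was 0.0637 for Mrps34.

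Mrps18c (chr5:100798627-100804471), the paralog of S18 that sits in the small subunit at the place of the bacterial protein, measured 106.4, 106, 100.6 and 149.7 CPM in HetTN and 54.2, 69.8, 70 and 62 CPM in KOTN. There was no overlap, and the log2 change was -0.77 (SE 0.20, edgeR adjusted p = 0.0205). The call was lost without HetTN replicate 4 (0.0583) or KOTN replicate 1 (0.0678) or 4 (0.0659), and in tdTomato-positive cells the log2 change was -0.24 (adjusted p = 0.587). Mrps30 (chr13:118378381-118387252), a large subunit protein specific to mitochondria, measured 85.4, 98.5, 49.1 and 55.5 CPM in HetTN and 41.8, 39.4, 33.1 and 43.3 CPM in KOTN. Its groups did not overlap and the log2 change was -0.78 (SE 0.24, adjusted p = 0.0464). It passed in 7 of 17 other settings and was lost without HetTN replicate 1 (0.0759) or 2 (0.127) or any single KOTN replicate (0.0852 to 0.148), and in the compared libraries alone (0.099). Reads of Mrps30 are uncertain, since it shares a coding stretch of 431 bp with B430218F22Rik on the opposite strand and the strand setting of the counting is not given in the sources used here. In the compared libraries alone, 4 members were called (all but Mrps30 of these 5), beside 7.3% of all genes tested there.

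**Figure D3:**
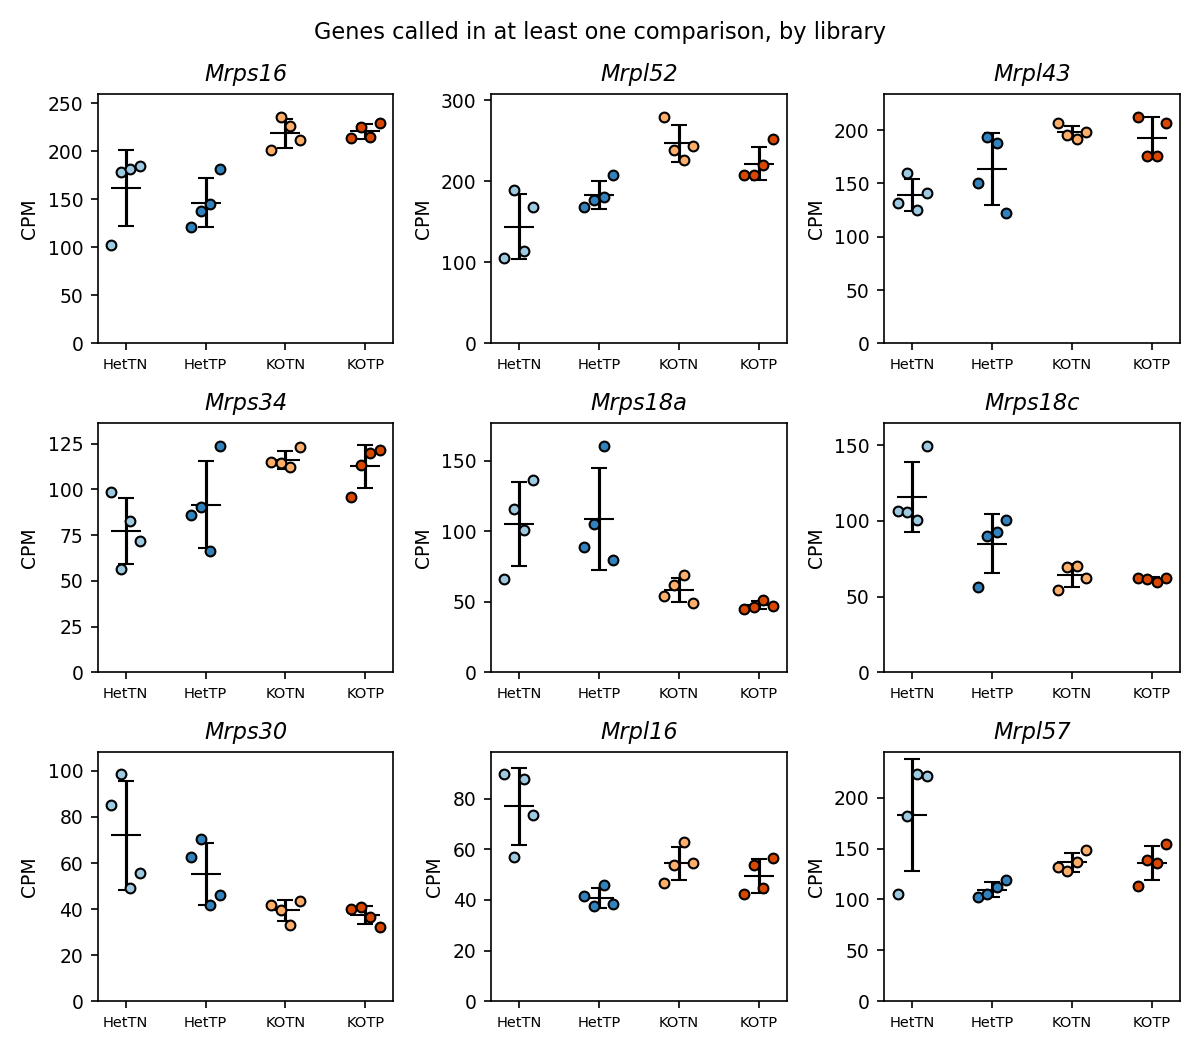
Level (CPM, linear axes from 0) of the 9 genes called in at least 1 comparison, by library, with the group mean and SD (n = 4). Mrps16 is higher in KOTP than HetTP and Mrps18a lower, Mrpl52, Mrpl43 and Mrps34 are higher in KOTN than HetTN and Mrps18c and Mrps30 lower, and Mrpl16 and Mrpl57 are lower in HetTP than HetTN.

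The 7 genes called between the genotypes had fitted changes of the same sign in both sorted populations, and in the fit of all 16 libraries with TMM scaling none passed the threshold in both. Under other settings some did. Mrps18a passed in both with RLE scaling, library totals, the filter at 5 CPM or DESeq2. Mrpl52 did so in the compared libraries alone, and Mrpl52, Mrpl43 and Mrps34 with upper quartile scaling. Over the 75 members, the genotype changes in tdTomato-positive and tdTomato-negative cells, which share no library, had the same sign for 49 (65.3%), against 66.8% of all genes tested. Across these genes Pearson's r was 0.46 and Spearman's rho 0.37, against 0.41 and 0.43 over all 10687 genes. Genes are not independent replicates, and both comparisons set the same deposited tables against each other. By class, the median genotype change in tdTomato-positive cells was 0.05 for the 30 large subunit genes with a bacterial counterpart and -0.05 for the 20 specific to mitochondria. It was 0.11 for the 15 tested small subunit genes with a bacterial counterpart and 0.23 for the 9 specific to mitochondria. In tdTomato-negative cells the same medians were -0.05, 0.04, 0.05 and 0.22.

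**Figure D4:**
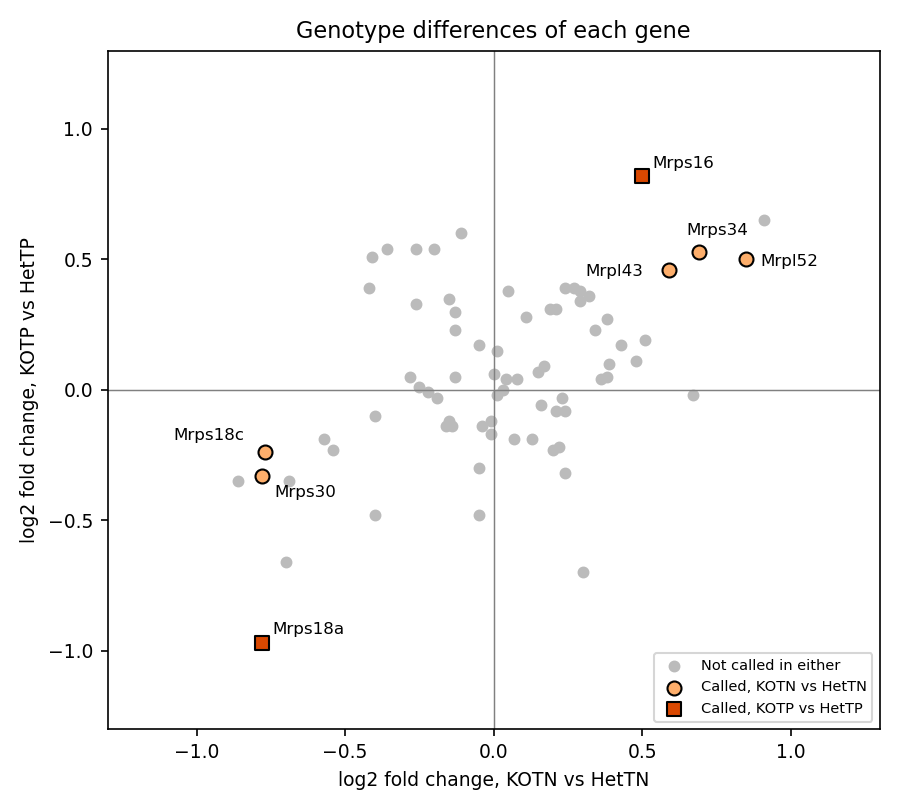
Fitted log2 fold change of each of the 75 tested genes between the genotypes in tdTomato-negative cells (horizontal axis) and tdTomato-positive cells (vertical axis). The 7 genes called in 1 of the comparisons are named and lie at the upper right or lower left, and 49 of 75 genes have the same sign on both axes.

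Of the stalk, the decoding centre and the dehydrogenase subunit, none of the genes followed here was called with all libraries in the fit. Mrpl12, a protein of the large subunit stalk, measured 162.7, 141.7, 145.8 and 188.6 CPM in HetTN and 203.3, 183.7, 139.7 and 146.8 CPM in HetTP. It measured 131.6, 135.6, 130.3 and 147.6 CPM in KOTN and 117, 145, 140.4 and 125.9 CPM in KOTP. The log2 change between genotypes was -0.12 (95% interval -0.45 to 0.21) in tdTomato-positive and -0.15 (-0.47 to 0.18) in tdTomato-negative cells, with overlapping groups. Mrps12, which forms part of the decoding centre, had log2 changes of 0.34 (-0.13 to 0.80) and 0.29 (-0.17 to 0.76) in the same comparisons. Without HetTP replicate 2, which held 124.1 CPM against 52.3 to 74 in the others, its change in tdTomato-positive cells was 0.62 and passed (edgeR adjusted p = 0.0328). Mrps36, the dehydrogenase subunit, had changes of 0.09 (-0.46 to 0.63) and 0.17 (-0.37 to 0.72). Its reads, and those of Mrpl23 and Mrpl48, may be shared with annotated pseudogenes.

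The comparison of tdTomato-positive with tdTomato-negative cells asked which genes go with activity of the Zfp318 reporter. The message of Zfp318 itself was not called in HetTP against HetTN (log2 -0.21, SE 0.43, edgeR adjusted p = 0.886). In heterozygous mice, Mrpl16 and Mrpl57 fell in HetTP against HetTN, and no member rose, beside 1.07% of all genes called, 0.599% higher and 0.468% lower. Both calls were absent when the 8 Het libraries were fitted alone (adjusted p = 0.761 for each, with 0 of 9703 genes called) and with limma voom (0.652 for each). The fit of all 16 libraries shares its estimate of the spread between the wider Het and the tighter KO libraries. Calls and interval counts of the members in the compared libraries alone are therefore given beside it, except for the difference of tdTomato effects. The median log2 change of the members was -0.06 (quartiles -0.30 and 0.13), against 0.02 over all genes, and 0.07 with library totals. The interval lay within a 2-fold change for 52 members (69.3%) in the fit of all libraries, against 30% of all genes, and for 34 in the Het libraries alone. An unadjusted p under 0.05 was reached by 13 members, against 16.2% of all genes. HetTP libraries lay entirely above HetTN for 1 member and entirely below for 4, against 3.45% and 1.24% of all genes.

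Mrpl16 (chr19:11770391-11774960), a large subunit protein with a bacterial counterpart near the peptidyl transferase centre, measured 89.6, 56.8, 87.7 and 73.7 CPM in HetTN and 41.5, 37.4, 45.9 and 38.4 CPM in HetTP. The groups did not overlap, and the log2 change was -1.03 (SE 0.20, edgeR adjusted p = 0.0217). It passed in 15 of 18 other settings, among them each of the 8 that left out a library. KO libraries held 46.6, 53.8, 62.9 and 54.4 CPM in KOTN and 42.5, 53.9, 44.9 and 56.6 CPM in KOTP, between the Het groups on average. Mrpl57 (chr14:57826234-57829296) measured 105.7, 182, 223 and 221.3 CPM in HetTN and 102.3, 105.1, 112 and 118.8 CPM in HetTP. HetTN replicate 1 lay within the HetTP range and the other 3 above it, with a log2 change of -0.88 (SE 0.21, adjusted p = 0.0493). Its call held in 5 of 18 other settings, and of the single libraries only leaving out HetTN replicate 1 kept it. With a term for the replicate number, shared by both genotypes, the edgeR adjusted p was 0.0603.

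The next members by p in the heterozygous comparison were also lower in HetTP without passing in edgeR's fit of all libraries. Mrpl55, a large subunit protein, measured 67.5, 50.1, 65.5 and 64.6 CPM in HetTN and 32.5, 42.2, 49.7 and 24.2 CPM in HetTP (log2 -0.85, edgeR adjusted p = 0.0765). Mrps17, a small subunit protein that binds the ribosomal RNA, measured 111.9, 66.8, 82.4 and 75.9 CPM in HetTN and 66.3, 64.8, 39 and 63.2 CPM in HetTP (log2 -0.64, adjusted p = 0.0935). Neither pair of groups overlapped. Mrpl23, a protein at the exit of the large subunit tunnel, had a log2 change of -0.55 (adjusted p = 0.104). With DESeq2 all 3 passed (adjusted p = 0.0115 for Mrpl55, 0.0282 for Mrps17 and 0.0406 for Mrpl23). In edgeR, Mrpl55 passed without HetTP replicate 3 (0.0341) and Mrpl23 without HetTN replicate 1 (0.0121).

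In homozygous mice no member was called between KOTP and KOTN by edgeR in the fit of all libraries, where 0.0187% of all genes were called (0.00936% in each direction), or in the 8 KO libraries alone, where 2.37% of 9974 genes were called. None was called by DESeq2 or limma voom, and none had an unadjusted p under 0.05 in the fit of all libraries, against 1.56% of all genes. The median log2 change was -0.04 (quartiles -0.12 and 0.01), with 22 members fitted above 0 and 53 below. Single members ranged from -0.43 to 0.27. The median over all genes was -0.01 (quartiles -0.19 and 0.16), and that of the members was -0.06 with library totals. The split by sign was not taken over all genes, so it is not read as a result about the members. The interval lay within a 2-fold change for 71 members (94.7%), against 40.2% of all genes, and for 74 in the KO libraries alone. The KOTP libraries lay entirely below those of KOTN for Mrpl28, Mrpl10, Mrps27 and Mrpl35 and entirely above for no member, against 4.51% and 2.52% of all genes.

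Mrpl28, a large subunit protein with a bacterial counterpart, measured 129.6, 129.3, 143.8 and 121.9 CPM in KOTN and 104.5, 113.6, 114.3 and 117.7 CPM in KOTP, a log2 difference of -0.20. Mrpl10, which anchors the stalk of the large subunit, measured 71.9, 70.1, 67 and 65.9 CPM in KOTN and 55.3, 51.4, 63.9 and 60.3 CPM in KOTP, a log2 difference of -0.23. Mrpl27, at the peptidyl transferase centre, measured 53.9, 53, 49.5 and 45.9 CPM in KOTN and 39.4, 32.5, 38.5 and 47.6 CPM in KOTP, a log2 difference of -0.34 with overlapping groups. The adjusted p of each was 1 in edgeR's quasi-likelihood test.

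Whether the tdTomato effect depended on genotype was tested as (KOTP minus KOTN) minus (HetTP minus HetTN). No member was called by edgeR, DESeq2 or limma voom, beside 0.122% of all genes in edgeR (0.0749% higher and 0.0468% lower), and 6 had an unadjusted p under 0.05, against 9.28% of all genes. The median was 0.01, against -0.05 over all genes, and -0.14 with library totals. The members with the smallest p were Mrpl16, with a difference of 0.91 on the log2 scale (SE 0.28, edgeR adjusted p = 0.248), and Mrpl57, with 0.90 (SE 0.29, adjusted p = 0.279). Mrpl57 passed without HetTN replicate 1 (adjusted p = 0.0261). The interval lay within a 2-fold change for 40 of the 75 (53.3%), against 17% of all genes. The fall of Mrpl16 and Mrpl57 in HetTP is therefore not shown to differ from the change in KO cells.

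The rest of the mitochondrial translation machinery was followed through further gene lists. None of the 6 mitochondrial ribosomal proteins listed under another symbol was called in any of the 5 comparisons, and their medians ranged from -0.16 to 0.09 on the log2 scale. Dap3, a GTP-binding protein of the small subunit, had log2 changes of -0.15 in KOTP against HetTP and -0.03 in KOTN against HetTN. In KOTP against HetTP the 6 genes ran from -0.38 to 0.69, the latter for Ict1 (edgeR adjusted p = 0.0518). None of 24 tested genes for assembly of the ribosome and modification of its RNA, of 14 translation factors or of 10 genes for transcription and copying of the mitochondrial genome was called either. In KOTP against HetTP the assembly genes ran from -1.3 (Tfb1m, edgeR adjusted p = 0.0581) to 1.32 (Mtg2, 0.056), with a median of 0.15. The translation factors ran from -0.65 to 0.81 (median -0.05) and the genome genes from -0.15 to 1.73 (median 0.37). Some SEs were wide, such as 1.47 for Ybey, so a missing call does not show an unchanged level. Tufm, the elongation factor that brings charged tRNA to the ribosome, had log2 changes of -0.09 and -0.33 between genotypes (edgeR adjusted p = 0.902 and 0.438).

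The proteins encoded by the mitochondrial genome itself, which this ribosome makes, varied more. Their 13 messages summed to 26500 to 42600 CPM in HetTN, 12700 to 26000 in HetTP, 14400 to 16100 in KOTN and 14800 to 16300 in KOTP, so HetTN stood above the other groups without overlap. In KOTN against HetTN, 11 of 13 fell (median -1.14), among them mt-Nd1, a subunit of complex I, at -1.34 (SE 0.18, edgeR adjusted p = 0.000101), and 9 were called in the compared libraries alone. In HetTP against HetTN, 6 fell (median -1.16), with mt-Nd1 at -1.21 (adjusted p = 0.00396), and none was called in the Het libraries alone. In KOTP against HetTP only mt-Nd6 fell (-0.97, adjusted p = 0.0301), and in KOTP against KOTN none was called (median 0.09). The difference of the tdTomato effects passed for mt-Nd1 (1.38) and mt-Nd2 (1.81), each at adjusted p = 0.0401. Reads of these genes may be shared with nuclear copies.

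The cytosolic ribosome, read by the same libraries, is the other ribosome of these cells. Its 81 genes summed to 120000 to 198000 CPM in Het and 215000 to 254000 CPM in KO, without overlap. Of 78 tested, 65 rose in KOTP against HetTP (median 0.79), with 71 called in the compared libraries alone, and 32 rose in KOTN against HetTN (median 0.52), with 4 called alone. In HetTP against HetTN 1 fell, with none called in the Het libraries alone, and in KOTP against KOTN none was called (medians -0.18 and 0.07). Cytosolic ribosomal protein genes have many processed copies in the genome, and how reads with several matches were counted is not given in the sources used here. Of the 17 cell division genes, 16 fell in KOTP against HetTP (median -1.79) and 14 in KOTN against HetTN (median -1.35). None was called in the tdTomato comparisons of the fit of all libraries, and 8 were called in KOTP against KOTN in the KO libraries alone. The differences between these lists and the mitochondrial ribosomal protein genes were not tested.

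**Figure D5:**
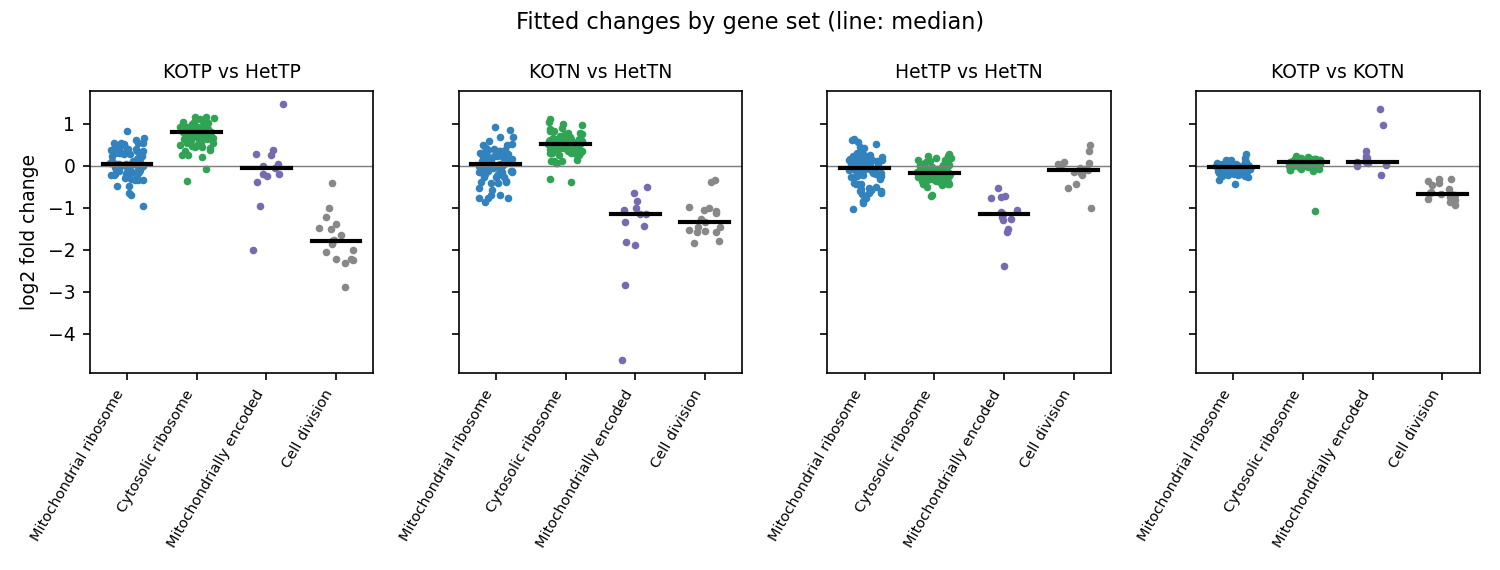
Fitted log2 fold changes of single genes (points) with the median (line) for the mitochondrial ribosomal protein genes, cytosolic ribosomal protein genes, mitochondrially encoded protein genes and cell division genes, in 4 comparisons on a shared axis. The medians of the mitochondrial ribosomal protein genes lie between -0.06 and 0.05, whereas those of the cytosolic set are 0.79 and 0.52 between genotypes and those of the cell division set -1.79 and -1.35.

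Genes next to the members and factors known to act at such promoters were read in the same fits. Of 18 tested head-to-head neighbours, Fau rose (log2 0.88, SE 0.18, edgeR adjusted p = 0.00299) and Ncapd2 fell (-1.34, SE 0.24, adjusted p = 0.00106) in KOTP against HetTP. Their partners had log2 changes of -0.19 (Mrpl49, 95% interval -0.93 to 0.54) and -0.12 (Mrpl51, -0.54 to 0.30). In KOTN against HetTN, Ncapd2 fell (-1.20, adjusted p = 0.00328), beside -0.01 for Mrpl51 (-0.43 to 0.41). Zfp661, a zinc finger gene next to Mrps5, was called higher than in HetTN in both KOTN and HetTP, and no fold is given because HetTN held no count. Between HetTP and HetTN no gene at all was called in the Het libraries alone. No neighbour was called in KOTP against KOTN.

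Of 9 tested regulators, Pprc1, a coactivator of NRF1, fell in KOTP against HetTP (log2 -1.12, SE 0.32, edgeR adjusted p = 0.028) and in KOTN against HetTN (-1.05, adjusted p = 0.039). Esrra, a nuclear receptor that acts on genes of energy metabolism, had no count in the 4 HetTN libraries, 48, 103, 72 and 106 counts in HetTP, 10, 18, 16 and 40 in KOTN and 27, 36, 6 and 9 in KOTP. It was called higher than in HetTN in HetTP (adjusted p = 0.0155) and KOTN (adjusted p = 0.00421). In the compared libraries alone, no regulator was called between HetTP and HetTN, and 1 was called between KOTN and HetTN. No other regulator was called in the 5 comparisons.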

How the data were processed

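RNA was measured by Smart-seq2 in 16 libraries. Trimming by Trim Galore, alignment by STAR 2.2.0 (mm10) and counting by featureCounts are named in the submitters' processing notes. The authors deposited raw counts over coding sequence in 1 table per genotype, per the file headers. Strand, read pairs and multiple matches are not given in the sources used here. The deposited RPM, log2 ratio and p-value columns were not used. Tables of 22680 entries were joined on the symbol, leaving out 4 entries of duplicated names and 1 unmatched name per table, and 88.8% of symbols matched GENCODE M21 (GRCm38), the source of coordinates and coding lengths. Levels are CPM, counts scaled to the library total. Changes come from edgeR 4.0.16 (R 4.3.3, limma 3.58.1) with TMM scaling, filterByExpr and the robust quasi-likelihood test on all 16 libraries (12 residual degrees of freedom). P-values were adjusted by Benjamini-Hochberg over 10687 genes and called under 0.05, and the code was tested on simulated data. TMM moved log2 changes against library totals by 0.23 (KOTP against HetTP), 0.09 (KOTN against HetTN), -0.12 (HetTP against HetTN), 0.02 (KOTP against KOTN) and 0.14 (their difference). Alternatives were RLE, upper quartile and library total scaling, no filter, 5 CPM in 4 libraries, DESeq2 1.42.0, limma voom with sample weights, a replicate block, the compared libraries alone and each library left out. Named genes were those called or, where fewer than 5 were called, the 5 with the smallest p, the 3 highest and 3 lowest per kb, and 7 set members (Mrpl12, Mrps12, Mrps18a, Mrps18b, Mrps18c, Mrps30, Mrps36). Genes whose KOTP and KOTN libraries did not overlap, and the head-to-head neighbours, were named after their values were seen. The members and lists were chosen with earlier results of these data known. Reads carried no molecular identifiers, so floors cover counting error only.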

Additional observations from a re-analysis of the deposited data

Results flagged for a closer look

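Among 100 groups of 4 libraries examined for the named genes, 6 held a library that stood far from the other 3 by Dixon's criterion (a gap over 0.829 of the range), and chance gives about 1 in 20. In HetTN, Mrps16 was low in replicate 1 (102.5 CPM, others 178.2 to 184.5). Mrpl55 was low in HetTN replicate 2 (50.1 CPM, others 64.6 to 67.5) and Mrps18c high in HetTN replicate 4 (149.7 CPM, others 100.6 to 106.4). In HetTP, Mrps17 was low (39 CPM, others 63.2 to 66.3) and Mrps31 high (54.6 CPM, others 9.8 to 15.9) in replicate 3. Mrps18b was high in HetTP replicate 4 (117 CPM, others 41.3 to 54). All 6 were Het libraries, and none was a KO library. Without HetTP replicate 3, Mrps31 passed in KOTP against HetTP (edgeR adjusted p = 0.0138), against 0.487 with it.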

How the results depend on the processing

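The number of members called depended on the setting. The share of all genes called is given above only for the main fit and the compared libraries alone. Counts under the other settings are therefore not read as results about the members. In KOTP against HetTP it was 2, and 6 with upper quartile scaling, 4 with library totals, 4 in the compared libraries alone and 1 to 5 with a library left out (5 without HetTP replicate 2, 1 without KOTP replicate 1, 2 or 4). In KOTN against HetTN it was 5, and 2 with limma voom and 1 to 8 with a library left out (8 without HetTN replicate 1, 1 without KOTN replicate 1 or 4, 2 without KOTN replicate 2 or 3). In HetTP against HetTN it was 2, and 1 with library totals, 1 without a filter, 5 with DESeq2, 0 with limma voom, 0 in the compared libraries alone and 1 to 6 with a library left out (6 without HetTN replicate 1, 1 without HetTN replicate 2 or 3 or HetTP replicate 1 or 4). In KOTP against KOTN it was 0 in every setting run, and for the difference of effects it was 0 to 1 with a library left out (Mrpl57 without HetTN replicate 1). The median log2 change with library totals was -0.18 in KOTP against HetTP and -0.14 for the difference of effects. With a replicate block in the fit of all 16 libraries the heterozygous count was 1, and the other counts stayed at 2, 5, 0 and 0. That block gave each replicate number 1 term for both genotypes, joining Het and KO libraries of the same number. It therefore cannot show how these counts depend on pairing within a genotype. With the block in the compared libraries alone, a setting added after the data were seen, the heterozygous count was 0. Over all tested genes, deviations of TN and TP libraries of the same number were hardly correlated. The correlations were 0.09, 0, 0.01 and 0 in Het and 0.01, -0.01, 0.07 and 0.01 in KO. The best match was the same number for Het 1 and 3 and KO 3. The numbers were therefore not treated as pairs, though replicate 1 held the lowest member sum in HetTN (5797 CPM) and HetTP (5921 CPM). Whether libraries of the same number come from the same mice is not labelled. Of the values of single named genes under other settings, 2186 kept their side of the threshold, 25 came to pass and 45 ceased to pass. No value that passed in either fit changed sign, and changes of sign among values that passed in neither were not counted. The cause of these shifts was not tested. The lowest tested gene, Mrps6, had 18 to 208 counts per library.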
